A study of Xenopus laevis with 30 samples.

Results

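Stage 13 embryos of the clawed frog Xenopus laevis, early neurulae in which the neural plate is forming, were set against stage 11 embryos, which are still gastrulating. The comparison took the 4 arrays labelled with these stages (2 for stage 13 and 2 for stage 11) out of 30 arrays that cover 15 stages. The stage 13 samples and the stage 11 samples were alike in all that the labels give apart from the stage: wild type, mixed sex, untreated as far as the labels state, and total RNA pooled from several whole embryos. The 2 arrays of each stage are described as biological replicates. Parents, strain and hours after fertilisation are not given, so the pools may share parents. P-values measure the spread between replicate pools, taken over all 15 stages and not from stages 13 and 11 alone. A gene whose replicates vary at other stages can thus miss a call although its 4 arrays lie apart. A probe set, the group of short probes that reports a transcript, was tested if it exceeded the median signal of its array on both stage 13 arrays or on both stage 11 arrays. That held for 17742 of 32539 probe sets, of which 13998 were above the median at both stages, 1836 only at stage 13 and 1908 only at stage 11.

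During gastrulation cells move inside the embryo to form mesoderm and endoderm under the control of Nodal, Wnt, BMP and FGF signals, and the dorsal lip, the Spemann organizer, secretes BMP antagonists that let the overlying ectoderm become neural. By the early neurula the ectoderm holds a neural plate, a border from which neural crest and placodes arise, and an epidermis that is beginning to make ciliated, ion-transporting and mucus-secreting cells, while the dorsal mesoderm forms notochord and somites. The egg's own stock of messenger RNA is cleared over the same period and replaced by transcripts of the embryo's genome.

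Log2 signals of the replicates correlated across probe sets at 0.993 for stage 13 and 0.990 for stage 11, and the median absolute difference between replicates was 0.104 at stage 13 and 0.0994 at stage 11 on the log2 scale. The array medians were 114.4 and 115.0 units at stage 13, against 121.1 and 118.7 units at stage 11. Every array had been scaled to the same 2% trimmed mean of its signals, so each change is relative to that mean. The 12 probe sets of added poly-A control RNA averaged 524 units at stage 13 and 622 units at stage 11, a log2 change of -0.25, and the 9 hybridisation control probe sets changed by -0.24. Scaling to the poly-A controls raises every log2 change by 0.25. Fewer cells of a type and less RNA per cell cannot be told apart in whole embryos, and a list name below stands for a set of genes, not for a tissue that was seen. The labelling starts from the poly(A) tail, so a change of signal may be a change of tail length, which was not tested. The pan-neural factor sox2, the eye field gene pax6 and the muscle actin actc1 were brighter at stage 13 than at stage 11. Both pax6 and actc1 are among the 12 largest rises of these data, so they are no separate check of the stages. The listed neural plate markers were split: sox2 and ncam1 were called higher at stage 13, and sox3 and zic1 lower. The genes of later tissues listed as likely to be dim were hba1, hba2, myh4, ttr, cpa1 and rho. Of these, ttr, cpa1 and rho are not reported on here. The globins hba1 and hba2 were under the array median on all 4 arrays. The fast myosin myh4 of the same set was not, with 1609 and 2009 units at stage 13. The cardiac myosin myh6, which was not in that set, was under the median on all 4 arrays.

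Most of the measured transcriptome changed between the stages. Limma called 13363 of 17742 probe sets different at an adjusted p under 0.05 (75.3%), with 5937 higher at stage 13 (33.5%) and 7426 lower at stage 13 (41.9%). With poly-A scaling 6166 were higher and 4215 lower, so the share of calls that were higher was 59.4% there and 44.4% on the deposited scale. Among genes named below with small falls, poly-A scaling ended the calls of zic2, sox11, otx1, e2f4, cldn7, pygm, atp2a1, vangl2, atp6v1a and atp6v1c1 (adjusted p from 0.064 to 0.90) and turned the sign of tcf7l1, atp6v0d1 and cdh3. The middle of all log2 changes (their median) was -0.11, or 0.13 with poly-A scaling. By fitted changes, in which dim signals count as deposited, 5745 probe sets were called and at least 2-fold different (32.4%), of which 2640 were higher (14.9%) and 3105 lower (17.5%). With signals raised to the array median these were 2003 higher and 2413 lower. The arrays of the stages did not overlap for 90.7% of the tested probe sets and 91.7% of the tested genes. The larger measured changes were mostly rises: with signals under an array's median raised to that median, 141 probe sets differed at least 8-fold, of which 105 were called higher and 36 lower, and all 7 that differed at least 32-fold were higher.

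The annotation gave 6566 tested genes a symbol of their own, each represented by its brightest probe set over the series. Of these, 5569 were above the array median at both stages. Of these 4287 were called (77.0%): 1790 higher at stage 13 (32.1%) and 2497 lower (44.8%), with a median log2 change of -0.13. These shares are the background for the gene lists. A gene that was bright at stage 13 only had to be higher there to be tested at all, so counts over such genes carry no weight, and for each list the genes bright at both stages are counted separately. Where a gene has several probe sets the choice of the brightest matters: with their mean, the log2 change moved by over 1.5-fold for 19 of 122 named genes. A fold is written "at least N-fold" where the dimmer stage lay under the array median, which then stands in for its signal as a chosen floor.

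Ranked by fold over the array median, which leaves the order of genes dim at stage 11 open, the first rise was that of itln1, an intelectin, a lectin secreted by epidermal cells, with 16247 and 16130 units at stage 13, against 149 and 281 units at stage 11 (79.3-fold, adjusted p = 2.5e-13). Next came agr2, a disulfide isomerase of the mucus-secreting cement gland, with 7410 and 8665 units at stage 13, against 28.8 and 19.4 units at stage 11 (at least 66.8-fold). The third was actc1, the cardiac alpha actin that tadpole skeletal muscle also uses, with 5093 and 6324 units at stage 13, against 22.7 and 27.2 units at stage 11 (at least 47.3-fold). Only genes whose arrays did not overlap between the stages were ranked, as held for 91.7% of all tested genes. The homeobox gene pax6, a regulator of eye and brain, had 3822 and 4064 units at stage 13, against 42.0 and 69.8 units at stage 11 (at least 32.9-fold), and stage 13 was its highest stage of all 15. The fibrillin fbn3, a microfibril protein, had 3041 and 3239 units at stage 13, against 83.1 and 74.6 units at stage 11 (at least 26.2-fold). The other annotated genes among the 12 largest rises were the hyaluronidase spam1 (at least 25.5-fold), tcaf1 (at least 22.5-fold), the fast myosin light chain myl1 (at least 21.0-fold) and the complement component c3 (at least 20.04-fold), together with 3 provisional symbols, XB5949052, XB5947741 and MGC75582, at 30.9-fold, 21.8-fold and 20.3-fold or more.

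The falls were led by genes of mesendoderm induction and by mitotic cyclins of the early embryo. The homeobox gene mix1, a direct Nodal target in prospective mesoderm and endoderm, had 132 and 142 units at stage 13, against 2979 and 2653 units at stage 11 (20.5-fold lower, adjusted p = 1.4e-08). The mitotic cyclin ccnb1 had 321 and 304 units at stage 13, against 5655 and 5078 units at stage 11 (17.1-fold lower). Cyclin ccna1, the embryonic form of cyclin A, had 233 and 183 units at stage 13, against 2921 and 2633 units at stage 11 (13.4-fold lower). The falls too were ranked only among genes without overlap between the stages. The Nodal co-receptor of the Cripto family tdgf1.3 had 659 and 593 units at stage 13, against 7883 and 7795 units at stage 11 (12.54-fold lower), and the endodermal homeobox gene mixer had 207 and 188 units at stage 13, against 2566 and 2204 units at stage 11 (12.04-fold lower). The remaining 7 of the 12 largest falls included bix1.3 (10.5-fold) and bix1.1 (at least 8.73-fold), relatives of mix1, the POU factor pou5f3.3 (at least 9.20-fold), nodal3.1, a divergent Nodal of the organizer (at least 8.89-fold), and tubgcp3, a part of the gamma-tubulin complex (at least 9.40-fold). The other members were cr1b (at least 13.1-fold) and XB5734924 (at least 8.63-fold).

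**Figure D1:**
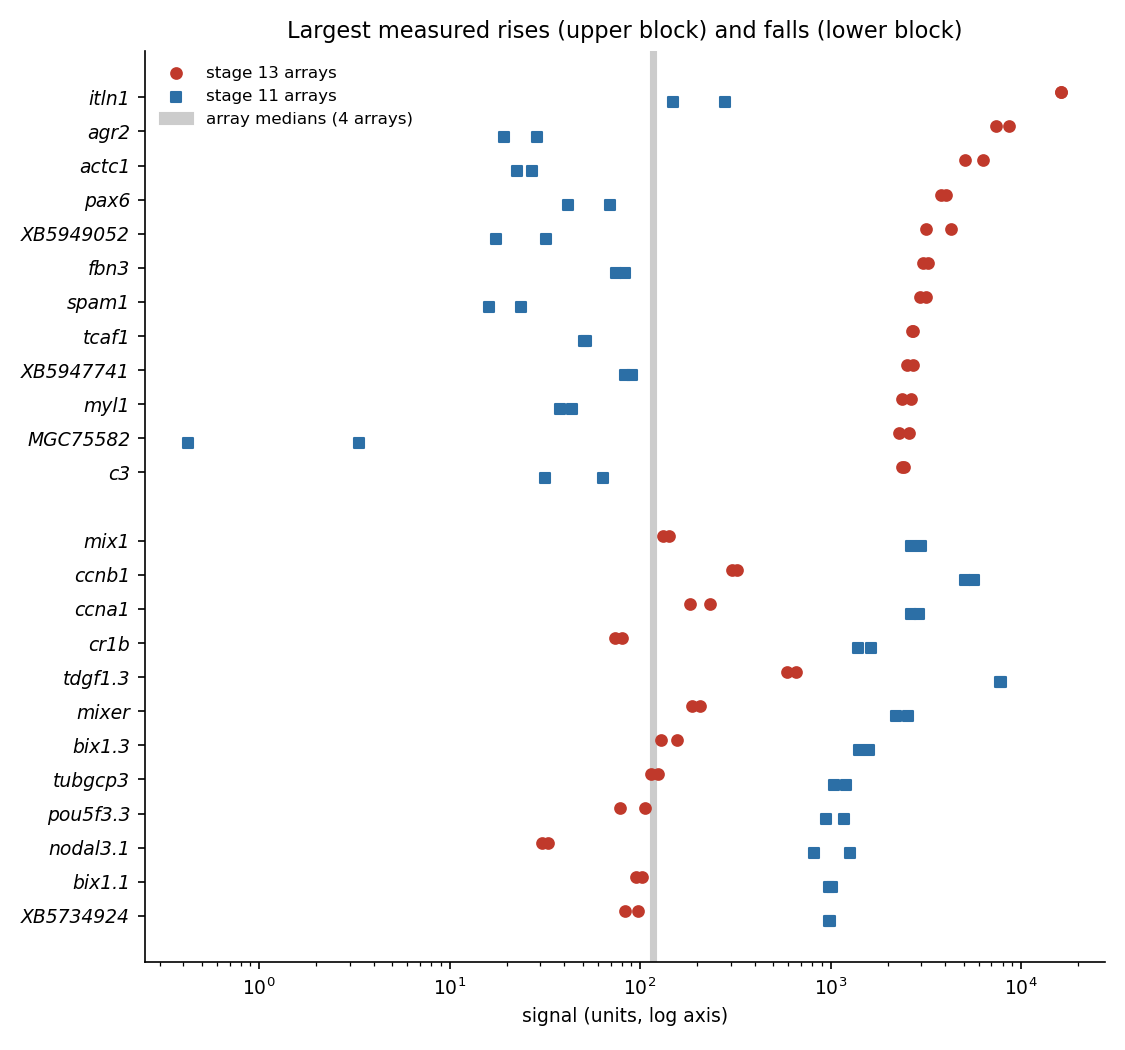
Signal in units (log axis) of the 12 genes with the largest measured rises and the 12 with the largest measured falls, with 1 point per array, stage 13 as circles and stage 11 as squares; the grey band spans the medians of the 4 arrays. The stage 13 and stage 11 points of a gene do not overlap because only such genes were ranked. The stage 11 points of 11 of the 12 risers lie at or under the band, whereas itln1 had 149 and 281 units there.

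Genes of the neural plate changed in both directions, in shares near those of all genes. Of 22 tested members, 11 were called higher and 7 lower. Of those called higher 6 entered through stage 13. Of the 16 bright at both stages 5 were higher (31.2%, against 32.1% of all such genes) and 7 lower (43.8%, against 44.8%). Their median log2 change was -0.10, and its sign turns with the poly-A shift. The SoxB1 factor sox2, which keeps neural progenitors undifferentiated, had 3759 and 3905 units at stage 13, against 1959 and 2131 units at stage 11 (log2 change 0.91 ± 0.07 SE, adjusted p = 3.1e-10). Its close relative sox3 went the other way, with 4904 and 5093 units at stage 13, against 7762 and 7679 units at stage 11 (log2 change -0.63 ± 0.06 SE), a call lost under poly-A scaling (adjusted p = 0.059). The zinc finger gene zic1, an early neural plate and border factor, fell to 5038 and 4795 units at stage 13, against 9272 and 8905 units at stage 11 (log2 change -0.89 ± 0.12 SE), and zic2 and sox11 were also lower. Later neural genes entered through stage 13: zic5 had 553 and 565 units at stage 13, against 45.1 and 52.1 units at stage 11 (at least 4.66-fold), and the neural adhesion molecule ncam1 had 368 and 337 units at stage 13, against 69.8 and 49.2 units at stage 11 (at least 2.94-fold). The neural homeobox gene nkx6-2, bright at both stages, was 2.94-fold higher. On the series' time course sox2 was highest at stage 13 and sox3 at stage 9, while zic1 was highest at stage 11.

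The anterior plate and eye field list held the sharpest rises within the nervous system. Of 16 tested members 12 were called higher and 3 lower. Of the 16, 8 were bright at stage 13 only and so had to be higher to be tested. The other 8 were bright at both stages, 4 of them higher and 3 lower (median log2 change 0.88). Of all genes bright at both stages 32.1% were higher and 44.8% lower. The forebrain repressor hesx1 had 1707 and 1749 units at stage 13, against 245 and 261 units at stage 11 (6.83-fold, adjusted p = 0.0024). The zinc finger gene sp8 of the anterior neural ridge had 1240 and 1392 units at stage 13, against 214 and 192 units at stage 11 (6.48-fold). The hindbrain boundary gene gbx2.1 had 914 and 1013 units at stage 13, against 110 and 116 units at stage 11 (at least 8.02-fold). All of these stage 13 arrays were above the stage 11 arrays, and in 91.7% of all tested genes the stages did not overlap. The retinal homeobox gene rax, which defines the eye field, had 327 and 383 units at stage 13, against 13.5 and 21.1 units at stage 11 (at least 2.95-fold), and the eye field partner six3 had 577 and 545 units at stage 13, against 4.34 and 27.9 units at stage 11 (at least 4.68-fold). The forebrain gene fezf2 had 656 and 663 units at stage 13, against 38.3 and 32.8 units at stage 11 (at least 5.5-fold). The exceptions were otx1, tcf7l1 (whose sign turned with poly-A scaling) and the LIM homeobox gene lhx5, which had 240 and 167 units at stage 13, against 984 and 1133 units at stage 11 (5.28-fold lower). The head gene otx2 had 2835 and 2907 units at stage 13, against 2264 and 2383 units at stage 11, a log2 change of 0.31 ± 0.14 SE that was not called (adjusted p = 0.051) but was under 7 alternatives (adjusted p from 0.00090 to 0.049). The midbrain gene en2 and the hindbrain gene egr2 were too dim at both stages to be tested; en2 had 34.4 and 51.1 units at stage 13, against 8.57 and 11.99 units at stage 11.

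The neural plate border and neural crest list changed mostly upwards. Of 22 tested members limma called 13 higher and 0 lower (also 0 lower at an unadjusted p under 0.05). Of the 18 bright at both stages 10 were higher (55.6%, against 32.1% of all such genes) and 0 lower (0.0%, against 44.8%). Their median log2 change was 0.50. With the 4 arrays fitted alone 5 members were called lower: msx2, tfap2a, id3, prdm1 and ednra, of which prdm1 averaged 1228 units at stage 13 and 2130 units at stage 11. The border factor pax3 had 6988 and 7557 units at stage 13, against 3735 and 3615 units at stage 11 (1.98-fold, adjusted p = 7.4e-06). The crest specifier snai2 had 432 and 533 units at stage 13, against 7.61 and 6.21 units at stage 11 (at least 4.001-fold), and sox8 had 419 and 492 units at stage 13, against 102 and 111 units at stage 11 (at least 3.79-fold). Both pairs of arrays were apart, as in 91.7% of all tested genes. The crest and cartilage regulator sox9 was 2.79-fold higher, the border factor msx1 2.02-fold and snai1, which represses cadherin genes, 1.62-fold. The crest specifier foxd3 had 1086 and 1072 units at stage 13, against 869 and 674 units at stage 11 and was not called (adjusted p = 0.63). In the placode list 5 of 8 tested genes were higher and 2 lower. Of the 4 bright at both stages 2 were higher and 1 lower, against 32.1% and 44.8% of all such genes. Another 3, pitx1 and tbx3 among them, were bright at stage 13 only and so had to be higher to be tested. Likewise foxi4.2, bright at stage 11 only, had to be lower. The higher genes included pitx1, a homeobox gene of the oral region with 290 and 328 units at stage 13, against 9.90 and 5.65 units at stage 11 (at least 2.57-fold), and tbx3 (at least 7.58-fold). The lower ones were the forkhead genes foxi4.2 and foxi2; foxi2 had 725 and 653 units at stage 13, against 1932 and 1775 units at stage 11 (adjusted p = 0.022), a call that was lost without any 1 of the 4 arrays (adjusted p from 0.056 to 0.083).

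Genes of neuronal differentiation and Notch signalling were next. Of 27 tested, 11 were higher, 3 lower and 13 not called. Of the 23 bright at both stages 7 were higher (30.4%, against 32.1% of all such genes) and 3 lower (13.0%, against 44.8%). Their median log2 change was 0.22. The neuronal tubulin tubb2b had 407 and 401 units at stage 13, against 39.6 and 43.6 units at stage 11 (at least 3.37-fold). The Notch target hes5.3 had 253 and 321 units at stage 13, against 76.2 and 78.16 units at stage 11 (at least 2.38-fold). The proneural factor neurog2, which starts primary neuron formation, had 306 and 261 units at stage 13, against 430 and 477 units at stage 11 (1.60-fold lower, adjusted p = 0.0012), a call lost under poly-A scaling (adjusted p = 0.13) and when all its probe sets were averaged (adjusted p = 0.069). The Notch ligand dll1 had 3812 and 3692 units at stage 13, against 2928 and 3044 units at stage 11 and was not called (adjusted p = 0.16).

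Hox genes, which set position along the trunk, were dim at stage 11 as a family and bright at stage 13. Of the 23 hox genes with a probe set in the list, 18 were above the median at stage 13 on both arrays and all 18 were under it at stage 11, so their calls as higher follow partly from how they entered. The posterior gene hoxb9 had 934 and 1049 units at stage 13, against 2.93 and 3.51 units at stage 11 (at least 8.26-fold). The trunk genes hoxc5 with 1454 and 1486 units and hoxc6 with 1321 and 1458 units at stage 13 were at least 12.26-fold and 11.6-fold higher, against 55.3 and 64.1 units for hoxc5 and 63.6 and 104 units for hoxc6 at stage 11. They came from the hoxa, hoxb, hoxc and hoxd clusters, from hoxa2 (194 units on average at stage 13 and 17.8 at stage 11) to hoxd11 (141 units at stage 13 and 18.2 at stage 11). The 5 hox genes that stayed too dim to be tested at either stage were hoxa11, hoxa13, hoxb5, hoxc12 and hoxd13; the highest of them at stage 13 was hoxa11, with 73.4 and 81.7 units, against 14.9 and 29.9 units at stage 11. Of the 4 members of the hox and caudal list that were bright at both stages 2 were higher and 0 lower. The caudal genes upstream of hox were already bright at stage 11. Of these cdx2 had 2954 and 3116 units at stage 13, against 1928 and 2209 units at stage 11 (1.47-fold, adjusted p = 0.0010). The other caudal genes were not called. Of these cdx1 averaged 6358 units at stage 13 and 5534 units at stage 11. For cdx4 the signal was 5412 and 5486 units at stage 13, against 2528 and 2874 units at stage 11 (adjusted p = 0.18). The cdx4 arrays do not overlap (log2 change 1.02). Limma called cdx4 higher with the 4 arrays alone (adjusted p = 1.1e-06), but not with the mean of its probe sets (adjusted p = 0.10).

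**Figure D2:**
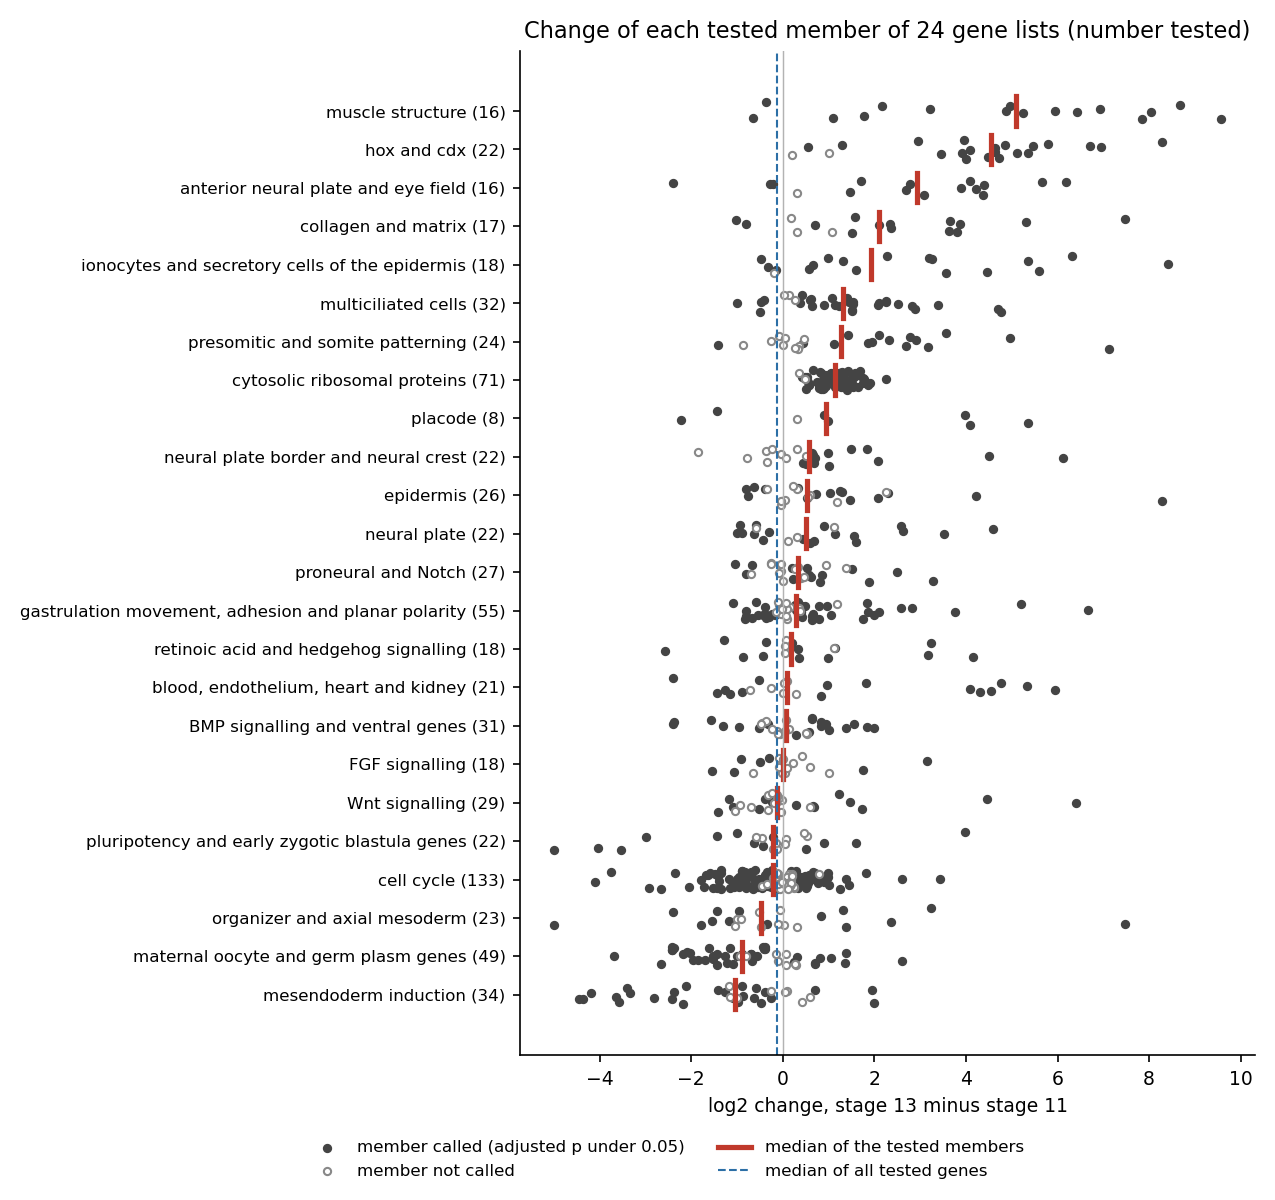
Log2 change, stage 13 minus stage 11, of each tested member of the 24 gene lists, with the number tested after each name; filled points were called by limma, open points were not, bars are list medians and the dashed line is the median of all tested genes, -0.13. The hox and muscle lists have medians of 4.55 and 5.099 and consist mainly of genes bright at stage 13 only, and the mesendoderm list has the lowest median, -1.05.

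Genes of the presomitic and somite list were more often higher than lower. Of 24 tested presomitic and somite genes 14 were higher and 1 lower. Of the 18 bright at both stages 8 were higher (44.4%, against 32.1% of all such genes) and 1 lower (5.6%, against 44.8%). Their median log2 change was 0.40. The myogenic factor myod1 had 1392 and 1270 units at stage 13, against 335 and 398 units at stage 11 (3.64-fold, adjusted p = 2.7e-10), and the related factor myf5 was 2.16-fold higher (adjusted p = 0.012). The segment boundary gene ripply2.2 had 1481 and 1558 units at stage 13, against 195 and 208 units at stage 11 (7.54-fold). The muscle splicing factor rbm24 had 3029 and 3364 units at stage 13, against 271 and 267 units at stage 11 (11.9-fold). None of these overlapped, as held for 91.7% of all tested genes. The muscle transcription factor mef2d had 2130 and 2114 units at stage 13, against 63.6 and 73.5 units at stage 11 (at least 17.7-fold, a log2 change of 4.96, or 2.98 with the mean of its probe sets), and tcf15, a bHLH factor of the somite, had 354 and 357 units at stage 13, against 3.12 and 2.099 units at stage 11 (at least 2.97-fold). The presomitic master gene msgn1 had 2623 and 2832 units at stage 13, against 2703 and 3119 units at stage 11 and was not called (adjusted p = 0.85). The lower gene, wnt8a, is a ventrolateral mesoderm signal that had 2140 and 2281 units at stage 13, against 6006 and 5748 units at stage 11 (2.66-fold, adjusted p = 0.025), and it lost its call without any 1 array (adjusted p from 0.066 to 0.083).

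Structural muscle genes were mostly under the array median at stage 11. Of 34 with a probe set 16 were tested. Of these 14 were bright at stage 13 only and so had to be higher to be tested. The fast myosin heavy chain myh4 had 1609 and 2009 units at stage 13, against 2.43 and 2.28 units at stage 11 (at least 15.0-fold), the regulatory light chain mylpf had 1204 and 1465 units at stage 13, against 12.01 and 2.14 units at stage 11 (at least 11.1-fold), and the muscle chromatin regulator smyd1 had 467 and 525 units at stage 13, against 8.77 and 19.5 units at stage 11 (at least 4.13-fold). The median over the 16 was 403 units at stage 13 and 17.9 units at stage 11. The pair bright at both stages, the calcium pump atp2a1 and the glycogen phosphorylase pygm, was lower, 1.57-fold and 1.29-fold.

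Genes of the organizer moved in both directions. Of 23 tested organizer and axial genes 6 were higher and 8 lower. Of the 17 bright at both stages 3 were higher (17.6%, against 32.1% of all such genes) and 6 lower (35.3%, against 44.8%). The early organizer factor gsc had 155 and 197 units at stage 13, against 627 and 584 units at stage 11 (3.46-fold lower, adjusted p = 3.6e-05). The head inducer cer1, an antagonist of Nodal, Wnt and BMP, had 1530 and 1238 units at stage 13, against 6788 and 7757 units at stage 11 (5.27-fold lower), and tbxt, the Brachyury gene of early mesoderm and notochord, had 3205 and 3176 units at stage 13, against 9168 and 9448 units at stage 11 (2.92-fold lower). Of the 6 higher genes 3, shh and col2a1 among them, entered through stage 13 and so had to be higher to be tested. The midline signal shh, which patterns the neural tube, had 658 and 713 units at stage 13, against 69.0 and 77.5 units at stage 11 (at least 5.71-fold). The notochord collagen col2a1 had 388 and 444 units at stage 13, against 0.621 and 8.83 units at stage 11 (at least 3.46-fold). The BMP antagonist nog had 406 and 409 units at stage 13, against 238 and 221 units at stage 11 (1.78-fold higher), and the activin and BMP antagonist fst was 2.60-fold higher. The floor plate and notochord regulators foxa4 (4171 units on average at stage 13 and 6026 at stage 11) and foxa2 (826 units at stage 13 and 894 at stage 11) were not called.

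Most genes of the mesendoderm list fell. Of 34 tested members 23 were lower and 3 higher. Of the 26 bright at both stages 18 were lower (69.2%, against 44.8% of all such genes) and 2 higher (median log2 change -0.88, against -0.13 for all genes bright at both stages). The T-box factor vegt, which starts endoderm formation from maternal message, had 2061 and 1966 units at stage 13, against 11001 and 10474 units at stage 11 (5.33-fold lower, adjusted p = 1.8e-10). The related T-box gene eomes averaged 192 units at stage 13 and 1000 units at stage 11 (5.22-fold lower). The TGF-beta ligand gdf3 had 1045 and 914 units at stage 13, against 6991 and 6683 units at stage 11 (6.99-fold lower), and the Nodal ligand partner gdf1 was 4.52-fold lower. All of these arrays were apart, as were those of 91.7% of all tested genes. The endoderm regulator sox17b.1 had 1992 and 2103 units at stage 13, against 3966 and 4055 units at stage 11 (1.96-fold lower, adjusted p = 0.00044), which was not called when its probe sets were averaged (adjusted p = 0.056). Its relative sox17a (1796 units at stage 13 and 2164 at stage 11) and the endoderm factor gata6 (2193 units at stage 13 and 2059 at stage 11) were not called, whereas gata4 and gata5 were lower. The higher members were tdgf1.2, mespa and snai1.

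The BMP, Wnt and retinoic acid and hedgehog lists had members called in both directions. In the FGF list the 2 genes called higher were bright at stage 13 only and so had to be higher to be tested. Of 31 BMP and ventral genes 12 were higher and 7 lower, of 29 Wnt genes 8 were higher and 7 lower, of 18 FGF genes 2 were higher and 5 lower, and of 18 retinoic acid and hedgehog genes 9 were higher and 5 lower. Over all tested members the median log2 changes were 0.07 for BMP and 0.18 for retinoic acid and hedgehog. They were -0.13 for Wnt (0.12 with poly-A scaling, so of opposite sign) and -0.004 for FGF (0.24 with poly-A scaling, so of opposite sign). The ligand gene bmp4 had 2393 and 2214 units at stage 13, against 1941 and 2284 units at stage 11, which overlap, and was not called (adjusted p = 0.35), though it was with the mean of its probe sets (adjusted p = 0.020). The BMP target gata3, an epidermal regulator, had 862 and 981 units at stage 13, against 258 and 206 units at stage 11 (3.99-fold higher). The signal transducer smad1 had 1892 and 1819 units at stage 13, against 3600 and 3622 units at stage 11 (1.95-fold lower). Among Wnt genes, the receptors fzd3 and fzd10 were 3.32-fold and 2.33-fold higher and the antagonist sfrp1 was 2.76-fold higher, while the feedback gene axin2 (1646 units at stage 13 and 1881 at stage 11) was not called. In the FGF list the feedback phosphatase dusp5 was 2.11-fold lower and the kinase map2k1 1.90-fold lower, and the ligand fgf8 (2973 units at stage 13 and 2876 at stage 11) and the target etv4 (6422 units at stage 13 and 6363 at stage 11) were not called. In the retinoic acid list the breakdown enzyme cyp26c1 had 1727 and 2079 units at stage 13, against 117 and 96.9 units at stage 11 (at least 15.8-fold), and the carrier crabp2 had 7438 and 6720 units at stage 13, against 706 and 884 units at stage 11 (8.95-fold). The paralogous breakdown enzyme cyp26a1 had 2485 and 2433 units at stage 13, against 3241 and 3373 units at stage 11 (1.34-fold lower), a call lost under poly-A scaling (adjusted p = 0.44). The synthesis enzyme aldh1a2 had 3743 and 3893 units at stage 13, against 3743 and 3663 units at stage 11, which meet; it was not called (adjusted p = 0.71), its sign turned under quantile normalization, and its 5 tested probe sets were called in both directions.

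Some surface ectoderm genes were among the largest rises, but the epidermal list was higher in a share near that of all genes. Of 26 tested epidermal genes 11 were higher and 4 lower. Of the 23 bright at both stages 8 were higher (34.8%, against 32.1% of all such genes) and 4 lower (17.4%, against 44.8%). The embryonic keratin krt12.5 had 10666 and 11429 units at stage 13, against 2437 and 2805 units at stage 11 (4.22-fold, adjusted p = 0.0035), and the simple epithelial keratin krt8.1 had 13112 and 13600 units at stage 13, against 5237 and 5658 units at stage 11 (2.45-fold). The tight junction protein cldn1 had 2336 and 2190 units at stage 13, against 8.31 and 6.29 units at stage 11 (at least 18.9-fold). The cornified envelope proteins evpl (4.90-fold) and ppl (at least 11.2-fold) were higher too. The lower genes included other claudins: cldn7 had 9550 and 9820 units at stage 13, against 12424 and 13118 units at stage 11 (1.32-fold), and cldn6.1 was lower as well. The keratin krt12.4 had 14270 and 15336 units at stage 13, against 2859 and 3397 units at stage 11, which do not overlap, yet it was not called (log2 change 2.25 ± 1.31 SE, adjusted p = 0.13), the SE coming from a fit that pools the spread over all 15 stages; with the 4 arrays alone it was called (adjusted p = 1.7e-07). The epidermal stem cell factor tp63 lay just under the filter, with 102.9 and 124.9 units at stage 13, against 4.42 and 12.05 units at stage 11.

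Genes of multiciliated cells, which beat mucus over the tadpole skin, were higher in a larger share than all genes. Of 32 tested 25 were higher and 4 lower. Of the 32, 11 were bright at stage 13 only and so had to be higher to be tested. Of the 21 bright at both stages 14 were higher (66.7%, against 32.1% of all such genes) and 4 lower (19.0%, against 44.8%). Their median log2 change was 0.61. Mcidas, the coactivator that starts the program, had 240 and 238 units at stage 13, against 3.14 and 24.5 units at stage 11 (at least 1.99-fold), and averaged 106 units at stage 17 and 3.01 units at stage 19. The ciliary master regulator foxj1 had 1060 and 1150 units at stage 13, against 722 and 751 units at stage 11 (1.499-fold, adjusted p = 0.0046), a call lost when all its probe sets were averaged (adjusted p = 0.69). Among axoneme genes the tektin tekt2 had 613 and 647 units at stage 13, against 21.3 and 27.6 units at stage 11 (at least 5.25-fold), and enkur, a microtubule inner protein of the cilium, had 651 and 660 units at stage 13, against 152 and 160 units at stage 11 (4.19-fold). Of the 25 that rose, 13 were highest at stage 23 and 5, mcidas and foxj1 among them, at stage 13. The lower ones included the regulators e2f4 and rfx2.

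Ionocyte and secretory genes rose in 14 of 18 tested, with 3 lower. Of the 11 bright at both stages 7 were higher (63.6%, against 32.1% of all such genes) and 3 lower (27.3%, against 44.8%). The forkhead factor foxi1, which specifies ionocytes, had 2869 and 3071 units at stage 13, against 577 and 644 units at stage 11 (4.87-fold, adjusted p = 2.4e-11), and stage 13 was its highest stage. The proton pump subunits of ionocytes entered through stage 13; atp6v1g3 had 649 and 620 units at stage 13, against 14.3 and 12.13 units at stage 11 (at least 5.29-fold), and atp6v0d2 was at least 2.51-fold higher. The housekeeping subunits of the same pump, atp6v1a, atp6v1c1 and atp6v0d1, were lower (none was called with poly-A scaling, and atp6v0d1 turned sign), and atp6v1e1 was not called (812 units at stage 13 and 923 at stage 11). The cement gland gene ag1 had 10668 and 10807 units at stage 13, against 3659 and 3478 units at stage 11 (3.01-fold), next to agr2 and itln1 above. Blood, vessel, heart and kidney genes went both ways, with 9 of 21 higher and 6 lower. Of the 14 bright at both stages 3 were higher (21.4%, against 32.1% of all such genes) and 6 lower (42.9%, against 44.8%). The blood regulator lmo2 had 816 and 589 units at stage 13, against 17.7 and 16.9 units at stage 11 (at least 5.79-fold), and the heart factor nkx2-5 had 279 and 282 units at stage 13, against 8.42 and 17.1 units at stage 11 (at least 2.34-fold). The endothelial receptor tek had 236 and 225 units at stage 13, against 1283 and 1153 units at stage 11 (5.28-fold lower), and its highest stage was stage 9.

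**Figure D3:**
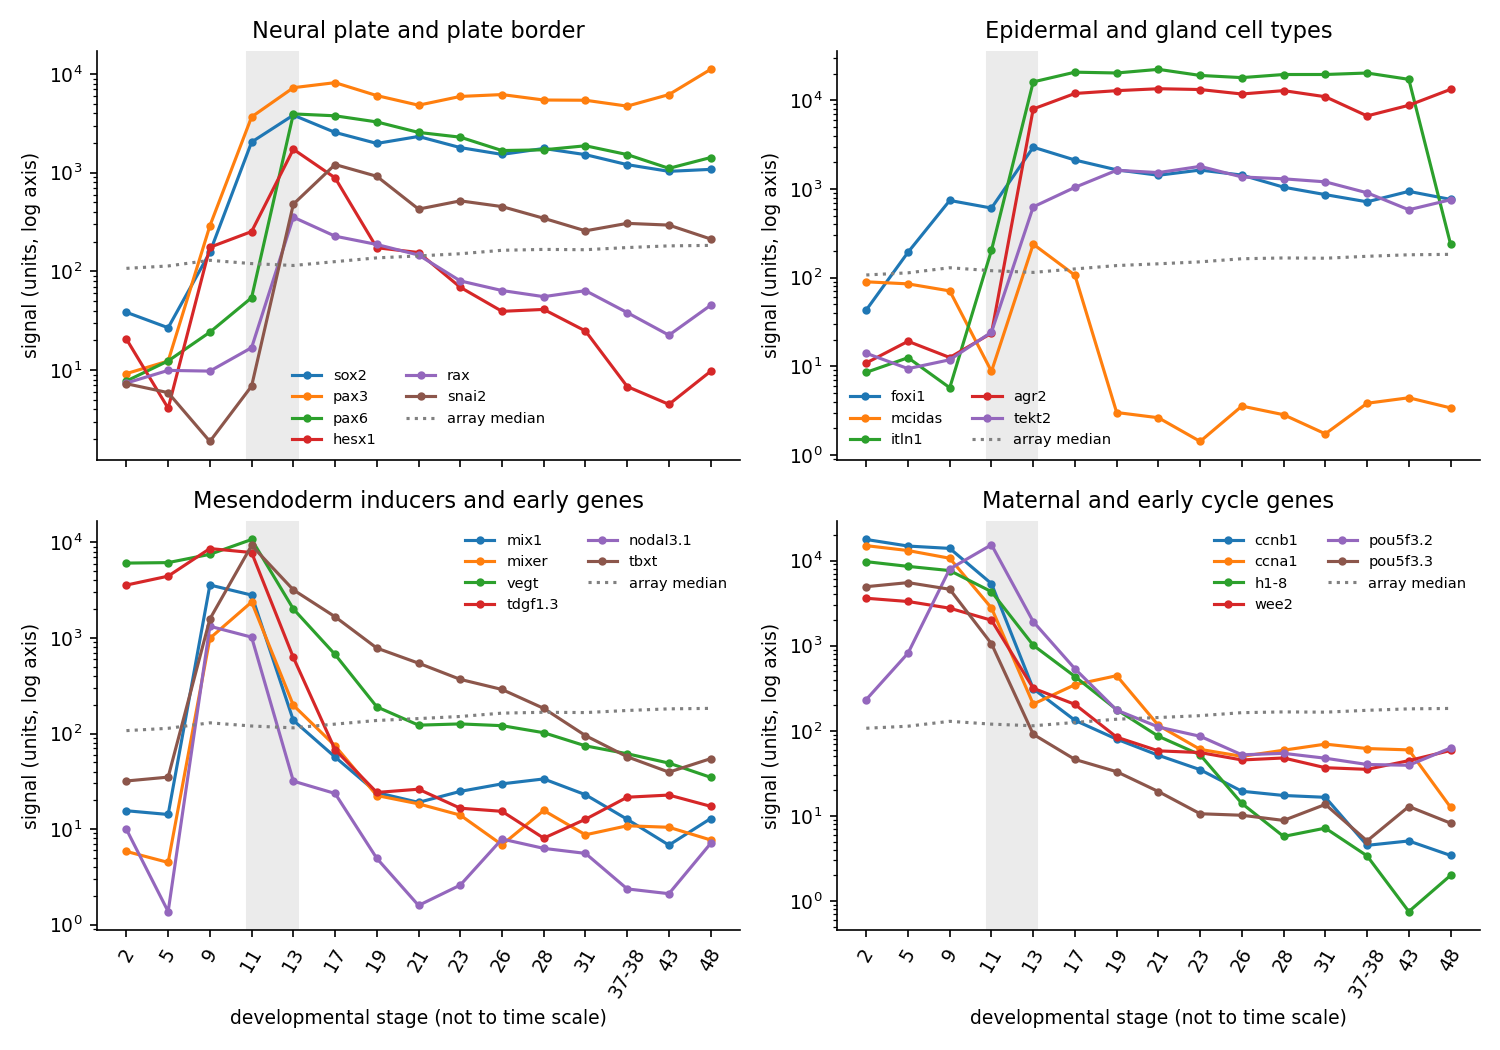
Signal in units (log axis, mean of 2 arrays) of selected genes over the 15 stages, which are spaced evenly and not by time; the shaded band marks stages 11 and 13 and the dotted line is the array median. Stage 13 is the highest stage of sox2, pax6, hesx1, rax, foxi1 and mcidas, while mix1 and ccnb1 were at 137 and 312 units at stage 13, against 2811 and 5359 units at stage 11.

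The 3 pou5f3 genes, the frog's relatives of mammalian Oct4, separated. For pou5f3.2 the signal was 2062 and 1785 units at stage 13, against 15840 and 14867 units at stage 11 (7.998-fold lower, adjusted p = 9.5e-09), and pou5f3.3 was at least 9.20-fold lower. In contrast pou5f3.1 had 5683 and 5179 units at stage 13, against 6124 and 6404 units at stage 11 and was not called (adjusted p = 0.70); its log2 change of -0.21 ± 0.48 SE turned to 0.04 under poly-A scaling. Of the 22 genes in the pluripotency and early zygotic list 4 were higher and 9 lower. Of the 17 bright at both stages 2 were higher (11.8%, against 32.1% of all such genes) and 6 lower (35.3%, against 44.8%). The list median was -0.21, or 0.04 and thus of opposite sign when scaled to the poly-A controls. The ventral homeobox genes ventx1.1, ventx1.2, ventx2.1 and ventx3.2, which act downstream of BMP, were not called.

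Of 49 tested maternal and germ plasm genes 31 were lower and 9 higher. Of the 42 bright at both stages 28 were lower (66.7%, against 44.8% of all such genes) and 7 higher (16.7%, against 32.1%). The list median was 592 units at stage 13 and 1299 units at stage 11. The kinase wee2, the oocyte form of the Cdk1 inhibitor Wee1, had 313 and 320 units at stage 13, against 2082 and 1906 units at stage 11 (6.29-fold lower, adjusted p = 3.0e-08). The germ plasm RNA nanos1, a translational repressor, had 196 and 185 units at stage 13, against 1007 and 1022 units at stage 11 (5.32-fold lower), and velo1, of the oocyte's Balbiani body, had 206 and 181 units at stage 13, against 1040 and 1029 units at stage 11 (5.36-fold lower). The oocyte linker histone h1-8 had 1017 and 1010 units at stage 13, against 4473 and 4157 units at stage 11 (4.26-fold lower, adjusted p = 0.045); although the arrays are far apart, the call was lost without any 1 array (adjusted p from 0.10 to 0.12). Of the 31 lower genes 12 were highest at stage 2 and 9 at stage 5. The germ cell helicase ddx4 was higher (1616 units on average at stage 13 and 927 at stage 11), and the germ cell RNA binding protein dazl was not called (876 units at stage 13 and 1542 at stage 11, adjusted p = 0.28).

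Cell cycle genes changed in shares not far from those of all genes. Of 133 tested 68 were lower and 35 higher. Of the 127 bright at both stages 66 were lower (52.0%, against 44.8% of all such genes) and 32 higher (25.2%, against 32.1%); the list median was -0.22, or 0.03 and thus of opposite sign when scaled to the poly-A controls. The origin recognition subunit orc6 had 538 and 461 units at stage 13, against 2603 and 2513 units at stage 11 (5.13-fold lower, adjusted p = 5.5e-13), and the centromeric histone cenpa was 3.47-fold lower. Of the 68 lower genes 27 were highest at stage 2 and 21 at stage 11. The antiproliferative gene btg2, which slows division, had 4448 and 4816 units at stage 13, against 393 and 468 units at stage 11 (10.8-fold higher), and the condensin subunit smc2 was 2.00-fold higher. The replication clamp pcna had 7803 and 7237 units at stage 13, against 5054 and 5260 units at stage 11 (1.46-fold higher).

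Within some families the related genes moved apart. These pairs were picked after their values were seen and are given as description; signals of different probe sets are not set against each other. In the replicative helicase, the maternal form mcm3 had 173 and 190 units at stage 13, against 1497 and 1241 units at stage 11 (7.53-fold lower), while the zygotic form zmcm3 had 2673 and 2656 units at stage 13, against 1101 and 1152 units at stage 11 (2.37-fold higher). Likewise mcm6 had 520 and 507 units at stage 13, against 1699 and 1572 units at stage 11 (adjusted p = 0.045), while mcm6.2 had 2553 and 2707 units at stage 13, against 383 and 485 units at stage 11 (6.103-fold higher). The arrays of the stages were apart in all 4 genes, as in 91.7% of all tested genes. The kinase wee2 fell as given above while wee1 had 2465 and 2269 units at stage 13, against 1641 and 1829 units at stage 11 (1.37-fold higher). The ligand bmp7.2 had 1862 and 1484 units at stage 13, against 9104 and 8105 units at stage 11 (5.17-fold lower), while bmp7.1 had 1961 and 2127 units at stage 13, against 685 and 698 units at stage 11 (2.95-fold higher). The cyclins did not split by direction: ccna2 was 2.00-fold lower and ccnb1.2 2.79-fold lower, next to the larger falls of ccna1 and ccnb1. For the linker histones, h1-8 was lower and h1-10 2.58-fold higher by its brightest probe set, but the 2 tested probe sets of h1-10 were called in opposite directions.

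**Figure D4:**
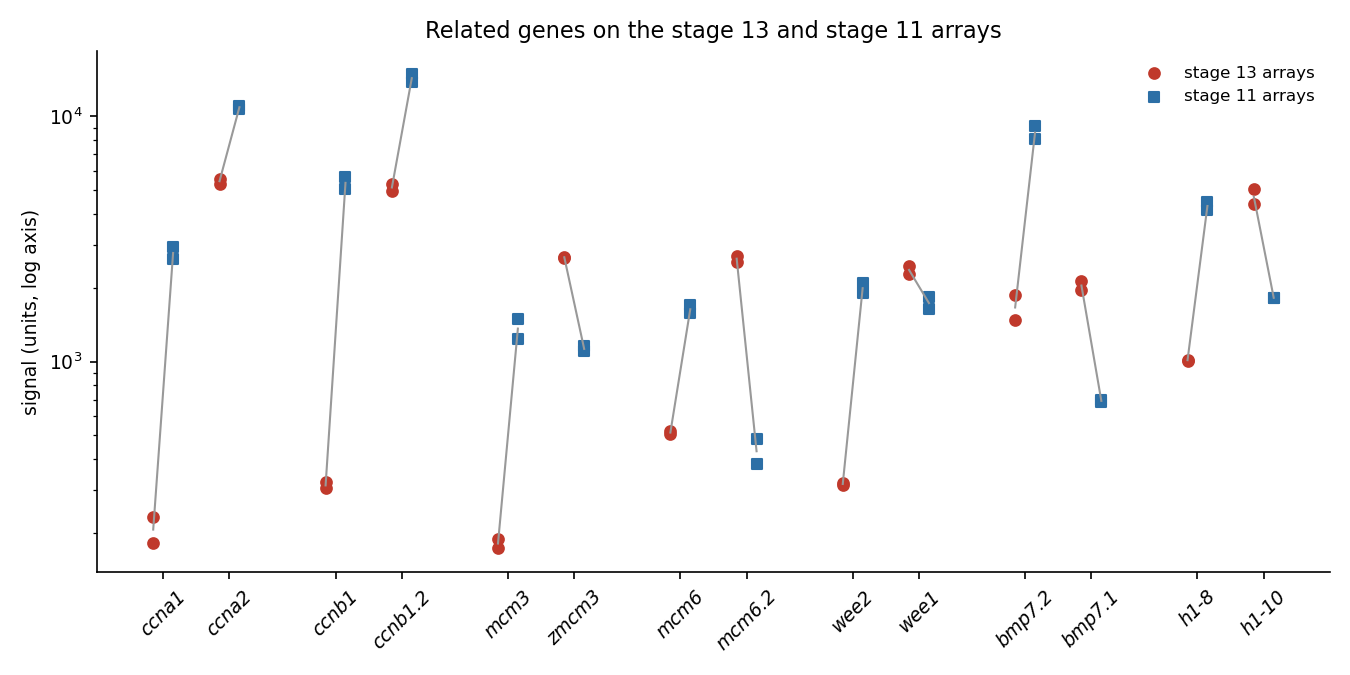
Signal in units (log axis) of 7 pairs of related genes, with 1 point per array, stage 13 as circles to the left of stage 11 as squares for each gene, and a line between the stage means. In mcm3 with zmcm3, mcm6 with mcm6.2, wee2 with wee1, bmp7.2 with bmp7.1 and h1-8 with h1-10 the lines run in opposite directions, and both cyclin pairs run the same way; heights of different genes are not comparable.

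Among genes of tissue movement and adhesion 26 of 55 were higher and 14 lower. Of the 44 bright at both stages 16 were higher (36.4%, against 32.1% of all such genes) and 13 lower (29.5%, against 44.8%). The neural cadherin cdh2 had 964 and 977 units at stage 13, against 65.8 and 76.9 units at stage 11 (at least 8.09-fold, adjusted p = 0.0014), whereas the maternal cadherin cdh3 had 10356 and 10509 units at stage 13, against 11406 and 12172 units at stage 11 (1.13-fold lower, a log2 change of -0.18 that turned to 0.07 with poly-A scaling). The epithelial cadherin cdh1 had 1845 and 1063 units at stage 13, against 625 and 612 units at stage 11 and was not called (adjusted p = 0.057). Fibronectin, fn1, on which mesoderm migrates, was 1.32-fold higher, and the planar polarity gene vangl2 was lower (3533 units on average at stage 13 and 5115 at stage 11). In the collagen and matrix list 12 of 17 were higher and 2 lower, but 10 of the 17 were bright at stage 13 only. Of the 7 bright at both stages 2 were higher (28.6%, against 32.1% of all such genes) and 2 lower (28.6%, against 44.8%). The link protein hapln3 had 853 and 878 units at stage 13, against 57.2 and 67.8 units at stage 11 (at least 7.22-fold), and the matrix glycoprotein sparc had 1186 and 1361 units at stage 13, against 30.4 and 39.4 units at stage 11 (at least 10.6-fold). The collagen chaperone serpinh1 was lower by its brightest probe set (426 units on average at stage 13 and 868 at stage 11).

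Cytosolic ribosomal protein genes rose almost as 1 block. Of 71 tested limma called 69 higher and 0 lower (0 also at an unadjusted p under 0.05 and with the 4 arrays alone), 45 of them at least 2-fold; 69 were bright at both stages, of which 68 were higher, against 32.1% of all genes bright at both stages. The median log2 change of the 71 was 1.14, or 1.39 with poly-A scaling. The median level was 7946 and 8214 units on the stage 13 arrays, against 3506 and 3706 units on the stage 11 arrays, with no overlap. By their brightest probe sets the large subunit genes rpl22l1, rpl24 and rpl4 had the largest changes of those called: rpl22l1 had 3078 and 3406 units at stage 13, against 683 and 673 units at stage 11 (4.78-fold), rpl24 had 4475 and 4714 units at stage 13, against 1198 and 1247 units at stage 11 (3.76-fold, a log2 change of 1.91, or 0.95 with the mean of its probe sets), and rpl4 was 3.65-fold higher. At the other end rps12 had 8683 and 8796 units at stage 13, against 6438 and 6558 units at stage 11 (1.34-fold). The genes not called were rps15a and rps28p9, both among the dimmest of the list, with averages of 129 and 234 units at stage 13 and of 92.0 and 184 units at stage 11. Over the series the list median was 3284 units at stage 2, 2045 at stage 9, 3592 at stage 11, 8127 at stage 13, 9093 at stage 17 and 16551 at stage 48.

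**Figure D5:**
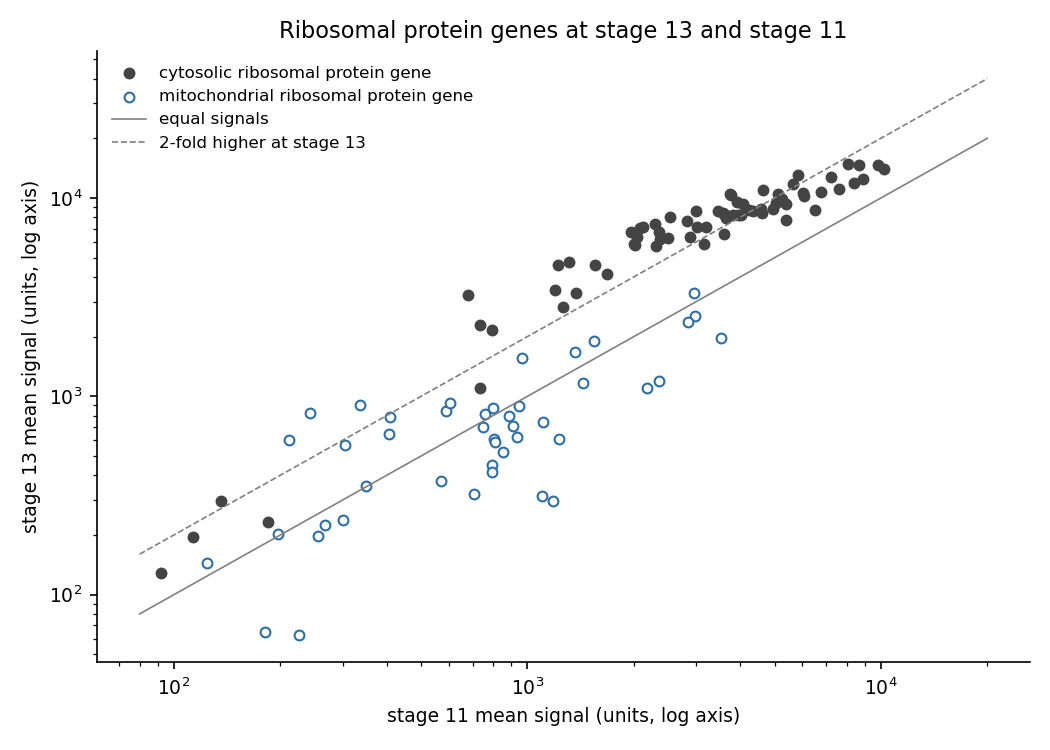
Mean signal at stage 13 against mean signal at stage 11 in units (both axes log) for each tested ribosomal protein gene, with the solid line at equal signals and the dashed line at 2-fold higher at stage 13. The 71 cytosolic genes (filled) lie above the line of equal signals, whereas the 44 mitochondrial genes (open) lie on both sides, with 12 called higher and 23 lower.

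Stage 13 was the highest stage of the series for 1648 of the 17742 tested probe sets, 1044 of which were called higher. Their direction is fixed, since a probe set highest at stage 13 cannot be lower there than at stage 11. Of all tested probe sets 33.5% were called higher. Of the 7426 called lower, 1918 were highest at stage 2, 1325 at stage 5, 1582 at stage 9, 1178 at stage 11 and 1423 at a stage after 13, 667 of these at stage 48. Among genes with stage 13 as their highest stage hesx1 averaged 1728 units at stage 13 and 887 at stage 17, rax 354 units at stage 13 and 227 at stage 17, and fezf2 was highest there too. Their signals at stage 11 were 253 units for hesx1 and 16.9 units for rax.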

How the data were processed

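Pooled whole embryos were measured on Affymetrix Xenopus laevis Genome 2.0 arrays. Per the submitters' processing notes, the authors made the deposited values, which are linear intensities, with MAS5 (the version was not given in those sources). The 2% trimmed mean of the deposited values is 500 on every array, so no further normalization was applied, and intensities were converted to log2. The number of arrays limits the precision, and detection calls were not used here.

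The 96 control probe sets were left out. Symbols came from the platform annotation: 15495 probe sets had 1 symbol, 279 several and 16765 none, and 15384 were found by Entrez identifier in RefSeq's table of assembly v10.1, which renamed 2. L and S gene copies share a symbol, and a gene was read from its probe set of highest average signal in the series. Stage means were fitted over all 30 arrays with limma 3.58.1 in R 4.3.3 (lmFit, eBayes with trend and robust settings, 15 residual degrees of freedom), the contrast was stage 13 minus stage 11, and p-values were adjusted by Benjamini-Hochberg over 17742 probe sets at 0.05. Stage means are geometric means of 2 arrays. Folds of single genes are after raising signals to their array's median.

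The comparison, its members and the 24 gene lists were chosen with earlier results of these data known. Named genes were the top 12 rises and top 12 falls by measured fold, if called, without overlap and above the median at the brighter stage, up to 4 called members per list, and a fixed set; other genes were named after their values were seen. Of the fixed set chrd, sox17b, pou5f3 and hoxd1 had no probe set under that symbol, and en2, egr2 and tp63 had one but were not tested. Replicate numbers did not pair the arrays: deviations of same-numbered arrays correlated at 0.023, and between -0.060 and 0.070 over 105 pairs of stages. On simulated data, with 200 of 17742 probe sets changed, 42 of 50 changed by 1 on the log2 scale were called, 50 of 50 raised by 2, 47 of 50 lowered by 2 and 21 of 50 changed by 0.5, with 41 of 17542 unchanged ones called. The changed ones were drawn from probe sets averaging above 200 units at stage 11, so these rates do not extend to dimmer probe sets. Far fewer probe sets were changed there than were called in the data. Alternatives covered normalization, filter, offset, moderation, threshold, array weights, replicate block, the 4 arrays alone and leaving out each array. Figures were drawn with matplotlib 3.10.9.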

Additional observations from a re-analysis of the deposited data

How the results depend on the processing

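The number of probe sets called, 13363 (5937 higher and 7426 lower), stayed within 1.5 times under median centring, quantile normalization, 50 units added, plain moderation, array weights, no filter, filters over any stage or in both stages, no _s_at or _x_at probe sets, the 4 arrays alone and an adjusted p of 0.01. With the replicate block 13359 were called, and the block changed the call of otx2 alone among the 122 named genes (adjusted p = 0.046 with the block and 0.051 without); otx2 was also called with median centring, poly-A scaling, the 75th percentile filter, 50 units added and array weights. A filter at the 75th percentile tested fewer probe sets (9274) and called 7316, of which 3512 were higher and 3804 lower. Asking for 2-fold as well left 5745, with 2640 higher and 3105 lower. Scaling to the poly-A controls called 4215 lower. Leaving out 1 array in turn gave 12093 to 12350 calls, with 5380 to 5503 higher and 6713 to 6847 lower. Of 122 named genes 114 were called. Poly-A scaling ended the calls of foxi2, wnt8a, sox3, neurog2, h1-8 and cyp26a1 and turned pou5f3.1 to 0.0400; leaving out any 1 array, or an adjusted p of 0.01, ended those of foxi2, wnt8a and h1-8. Median centring and no filter also ended that of h1-8 (adjusted p = 0.052 and 0.061), and quantile normalization that of foxi2 (0.056). For aldh1a2, not called, the log2 change was -0.10 under quantile normalization and with the mean of all probe sets, a setting that also ended the calls of neurog2, sox17b.1 and foxj1 and called bmp4 and krt12.4. With the 4 arrays alone all 114 calls held, and foxd3, dll1, cdx4, krt12.4, otx2 and pou5f3.1 were called too; of 208 probe sets that differed 2-fold without a call, 203 were called that way. The other causes were not tested. Dim signals limit the folds of genes under the array median.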

Other observations

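Several groups of housekeeping genes outside the lists above were looked at after the ribosomal genes had been seen. Against 34.2% higher and 45.1% lower among all tested genes, 60 of 70 ribosome assembly genes were higher at stage 13 (85.7%) and 1 lower (median log2 change 0.63), among them rrn3, an initiation factor of RNA polymerase I, and polr1a, the largest subunit of that polymerase. Of 45 translation factors 34 were higher (75.6%) and 4 lower (median 0.42), of 35 proteasome genes 25 were higher (71.4%) and 4 lower (median 0.43), and of 60 nuclear genes of the respiratory chain 37 were higher (61.7%) and 11 lower (median 0.31). Mitochondrial ribosomal protein genes were near the shares of all genes: of 44 tested 12 were higher (27.3%) and 23 lower (52.3%; median -0.25, or -0.01 with poly-A scaling). The proteasome ATPase psmc2 was 4.69-fold higher and the succinate dehydrogenase subunit sdhb 4.07-fold higher, whereas the mitochondrial ribosomal gene mrps17 was 3.999-fold lower.

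Xenopus laevis keeps many genes as L and S copies from an ancient genome doubling. Both copies were tested for 1326 genes. Both were called in 814, with 302 higher in both, 389 lower in both and 123 called in opposite directions. In 389 genes 1 copy alone was called, and in 123 neither. Beside these counts, 34.2% of all tested genes were called higher and 45.1% lower. In 5 genes opposite calls were at least 2-fold in both copies after raising dim signals to the array median: atg16l1, nasp, nkain4, rassf1 and serpinh1. For the collagen chaperone serpinh1 the L copy had 390 and 465 units at stage 13, against 825 and 914 units at stage 11, and the S copy had 471 and 593 units at stage 13, against 72.1 and 112 units at stage 11. For the tumour suppressor rassf1 the L copy had 321 and 288 units at stage 13, against 583 and 645 units at stage 11, and the S copy had 739 and 614 units at stage 13, against 138 and 197 units at stage 11. Probes of a copy can also take up transcripts of the other, which was not tested.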
